A study of Homo sapiens with 9 samples.

Results

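The 9 genes described here encode enzymes and stress proteins that are widely used as readouts of the transcription factor NRF2. They were taken by name from the GENCODE part of a deposited count table of 112171 features, 57820 of them GENCODE genes, and each symbol matched 1 row. HMOX1, NQO1, GCLC, GCLM, TXNRD1, SRXN1, OSGIN1, ME1 and PRDX1 make up the set. RNA was sequenced from PANC-1, an established human cell line from a pancreatic carcinoma, which had spent 12 h under hypoxia. The groups were rakicidin A at 42 nM, BE-43547A1 at 41 nM and the solvent DMSO at 0.04%, each with 3 libraries. Rakicidin A is a bacterial cyclic lipodepsipeptide, the doses of the compounds differed slightly, and how much DMSO accompanied each compound is not stated. Hypoxia was common to all 3 groups, without a normoxic library for contrast. Nothing in the labels shows whether replicate libraries had separate cultures behind them, so the p-values reflect spread among libraries, part of which may be technical.

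NRF2, encoded by NFE2L2, is held at low levels by KEAP1, which hands it to a ubiquitin ligase. When reactive molecules modify KEAP1, NRF2 escapes breakdown, pairs with a small MAF protein and binds the antioxidant response element near its target genes, where the repressor BACH1 can compete for the same sites. The targets supply glutathione, recycle thioredoxin, make NADPH and break down heme. Many of them are shared with other stress pathways.

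Promoter sequence is shown for the members whose window held a motif tied to NRF2 or to the related AP-1 factors, so that the letters can be read beside the values below. The table of RefSeq promoters (GRCh38.p14) held 8 windows for 7 of the 9 genes, and TXNRD1 had 2 of them. HMOX1 and PRDX1 were not in it. The 250 bases before each start were searched on both strands for TGACNNNGC, the core of the antioxidant response element, and for TGANTCA, the AP-1 site, which can overlap it. The core lay in 4 windows, those of GCLM and ME1 and both of TXNRD1, against 10.9% of all 35116 windows searched. The AP-1 site lay in 2 windows, those of ME1 and OSGIN1, against 6.57% of all windows. Capitals mark the matches, and each sequence runs 5′ to 3′ on the strand of the gene.
GCLM (chr1:93909431-93909680, minus strand): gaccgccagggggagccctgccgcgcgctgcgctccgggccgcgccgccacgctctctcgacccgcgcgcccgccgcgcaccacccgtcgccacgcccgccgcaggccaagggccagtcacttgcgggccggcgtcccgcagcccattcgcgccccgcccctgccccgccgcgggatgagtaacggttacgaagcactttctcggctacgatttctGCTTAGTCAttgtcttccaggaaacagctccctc
TXNRD1, first start (chr12:104215529-104215778, plus strand): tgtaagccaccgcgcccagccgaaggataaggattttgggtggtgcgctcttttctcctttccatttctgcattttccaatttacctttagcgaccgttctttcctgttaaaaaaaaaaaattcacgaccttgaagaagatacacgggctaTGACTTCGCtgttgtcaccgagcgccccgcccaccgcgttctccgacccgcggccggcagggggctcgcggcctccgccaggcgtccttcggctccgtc
TXNRD1, second start (chr12:104286782-104287031, plus strand): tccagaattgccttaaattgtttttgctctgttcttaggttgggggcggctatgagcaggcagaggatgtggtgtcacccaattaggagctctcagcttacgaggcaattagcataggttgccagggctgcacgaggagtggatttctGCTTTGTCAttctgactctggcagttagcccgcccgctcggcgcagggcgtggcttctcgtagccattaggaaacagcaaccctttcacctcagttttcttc
ME1 (chr6:83431052-83431301, minus strand): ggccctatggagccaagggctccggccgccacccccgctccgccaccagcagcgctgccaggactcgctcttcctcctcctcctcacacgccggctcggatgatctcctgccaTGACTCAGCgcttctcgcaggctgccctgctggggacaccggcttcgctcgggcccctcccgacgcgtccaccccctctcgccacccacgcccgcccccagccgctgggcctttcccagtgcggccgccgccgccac
OSGIN1 (chr16:83952990-83953239, plus strand): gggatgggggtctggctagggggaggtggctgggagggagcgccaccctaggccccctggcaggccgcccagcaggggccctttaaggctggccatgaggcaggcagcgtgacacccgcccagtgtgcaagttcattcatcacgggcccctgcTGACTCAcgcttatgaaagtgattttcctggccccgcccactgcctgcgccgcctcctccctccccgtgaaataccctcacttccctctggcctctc
In GCLM and in the second TXNRD1 window the core was read on the opposite strand, as GCTTAGTCA and GCTTTGTCA. In ME1 the core and the AP-1 site overlapped as TGACTCAGC. The windows of GCLC, NQO1 and SRXN1 held neither motif, which says only that these letters are not in the 250 bases searched.

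Libraries held 26203326 to 34870860 counts on features after rakicidin A, 39807220 to 45048999 after BE-43547A1 and 27696394 to 30596594 in DMSO. DMSO replicate 3 stood apart from its group, with a chi-square per feature of 16.2 and 14.8 against the other DMSO libraries, which differed from each other by 6.25. The 6 keratin, EPCAM and vimentin genes that mark the line summed to 6665 to 6853 CPM (the count as a share of its library, scaled by TMM, the trimmed mean of M-values) after rakicidin A, 8403 to 9082 CPM after BE-43547A1 and 7315 to 7647 CPM in DMSO, and none was at 0. VIM alone averaged 4296, 5237 and 4501 CPM in these groups. KRT7 averaged 5.10, 6.58 and 5.14 CPM, and EPCAM 14.7, 18.5 and 18.9 CPM. All 6 were called lower after rakicidin A than after BE-43547A1, beside 22.5% of all tested features. The markers of leukocytes, endothelium, stroma and normal pancreas, of which 10 of 11 were in the table, summed to 5.90 to 7.56 CPM, 7.42 to 9.94 CPM and 8.24 to 12.4 CPM in the same 3 groups, with 2 to 5 of them at 0 in each library. Their part in the results below was not tested. In bulk RNA, fewer cells of a type and less RNA per cell cannot be told apart. All fold changes are relative to the TMM scaling, and scaling by total counts alone moved the median of all tested features to -0.38 on the log2 scale for rakicidin A and to -0.24 for BE-43547A1. That scaling called 4477 features higher and 11392 lower after rakicidin A, and 5951 higher and 10450 lower after BE-43547A1, where TMM called 7141 and 7314, and 7898 and 7840.

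With both compounds 6 members rose (GCLC, GCLM, TXNRD1, HMOX1, OSGIN1 and ME1), PRDX1 fell and NQO1 did not pass. SRXN1 had too few counts to be tested. Against DMSO, 6 of 8 tested members were higher after rakicidin A, where 31.9% of all 22353 tested features passed as higher (64.7% in either direction). The same 6 were higher after BE-43547A1, where 35.3% of all features did (70.4% in either direction). In the other direction 1 of 8 was lower with each compound, beside 32.7% of features after rakicidin A and 35.1% after BE-43547A1. The median log2 fold change over the 8 was 0.96 after rakicidin A and 0.41 after BE-43547A1, beside medians over all features of -0.02 and 0.00. Under scaling by total counts, 5 members were higher and 2 lower after rakicidin A, with a median of 0.60, and 4 were higher and 2 lower after BE-43547A1, with a median of 0.17. Both comparisons share the DMSO libraries. How many of all features had treated libraries that did not overlap those of DMSO was not counted. After rakicidin A this held for 22 of 24 tested glutathione genes and 5 of 12 NADPH genes of the lists below. The members were chosen with earlier results of these data known, so setting them beside all features is not an independent test. A gene passed at an edgeR quasi-likelihood p below 0.05 after Benjamini-Hochberg adjustment over all features.

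**Figure D1:**
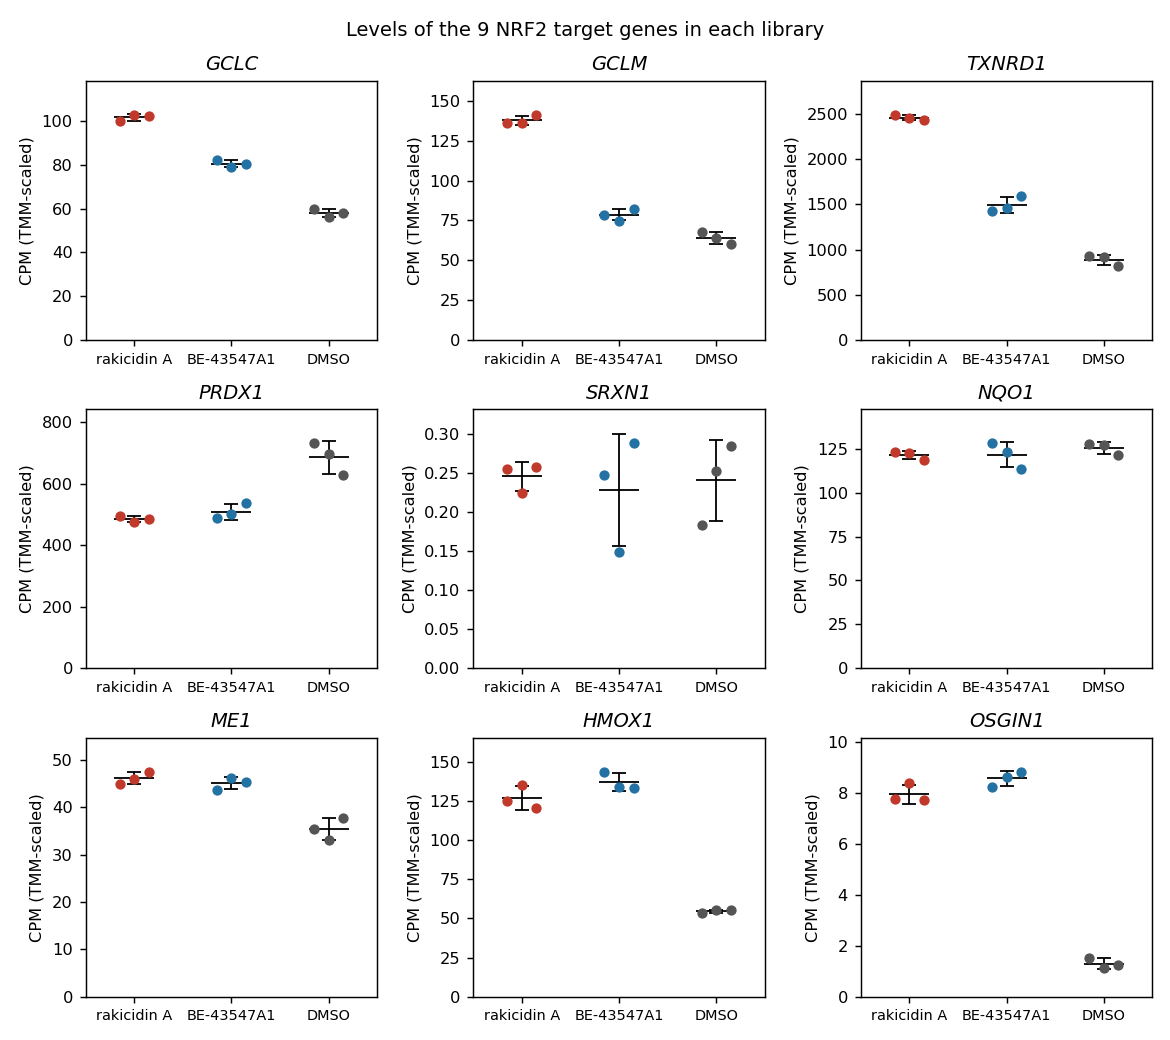
Each panel plots 1 gene, with its level in CPM (scaled by TMM, axis from 0) in the 3 libraries each of rakicidin A, BE-43547A1 and DMSO. Bars give the mean and SD. The treated libraries of GCLC, GCLM, TXNRD1, ME1, HMOX1 and OSGIN1 lie above all DMSO libraries, those of PRDX1 lie below them, and NQO1 and SRXN1 overlap. The share of all features with such separation was not counted, and 64.7% of them passed after rakicidin A and 70.4% after BE-43547A1.

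Glutathione synthesis begins with glutamate-cysteine ligase, which is made of the catalytic subunit GCLC and the modifier subunit GCLM. GCLM reached 136.5, 136.1 and 141.4 CPM after rakicidin A and 78.7, 74.9 and 81.9 CPM after BE-43547A1, against 68.04, 63.9 and 60.2 CPM in DMSO. No group overlapped another, and the rakicidin A libraries stood far above the rest. The log2 fold change of GCLM was 1.11 ± 0.06 after rakicidin A (± SE, edgeR adjusted p = 7.12e-12) and 0.29 ± 0.06 after BE-43547A1 (edgeR adjusted p = 0.000211). With total counts alone the second rise shrank to 0.06 and no longer passed (edgeR adjusted p = 0.375). Set against each other, the compounds differed by 0.81 (95% interval 0.69 to 0.94, edgeR adjusted p = 4.82e-09), and 1078 of the 22353 features had a larger log2 fold change in that comparison.

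GCLC followed in the same order, at 99.97, 102.9 and 102.4 CPM after rakicidin A, 82.4, 79.03 and 80.3 CPM after BE-43547A1 and 59.9, 56.03 and 57.9 CPM in DMSO. Here too the groups did not overlap. GCLC rose by 0.81 ± 0.05 on the log2 scale after rakicidin A (edgeR adjusted p = 1.45e-10) and by 0.48 ± 0.05 after BE-43547A1 (edgeR adjusted p = 2.22e-07). The difference between the compounds was 0.34 (95% interval 0.23 to 0.45, edgeR adjusted p = 3.73e-05). The subunits moved by unequal amounts. Within a library, where no scaling enters, there were 1.37, 1.32 and 1.38 GCLM counts per GCLC count after rakicidin A, 0.956, 0.948 and 1.02 after BE-43547A1 and 1.14, 1.14 and 1.04 in DMSO. The ratio was highest in the rakicidin A libraries and lowest in the BE-43547A1 libraries. With 3 libraries a group the exact two-sided permutation p was 0.1 for each of the 12 comparisons of such ratios made here, the smallest that this design allows, and stays 0.1 after Benjamini-Hochberg adjustment.

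**Figure D2:**
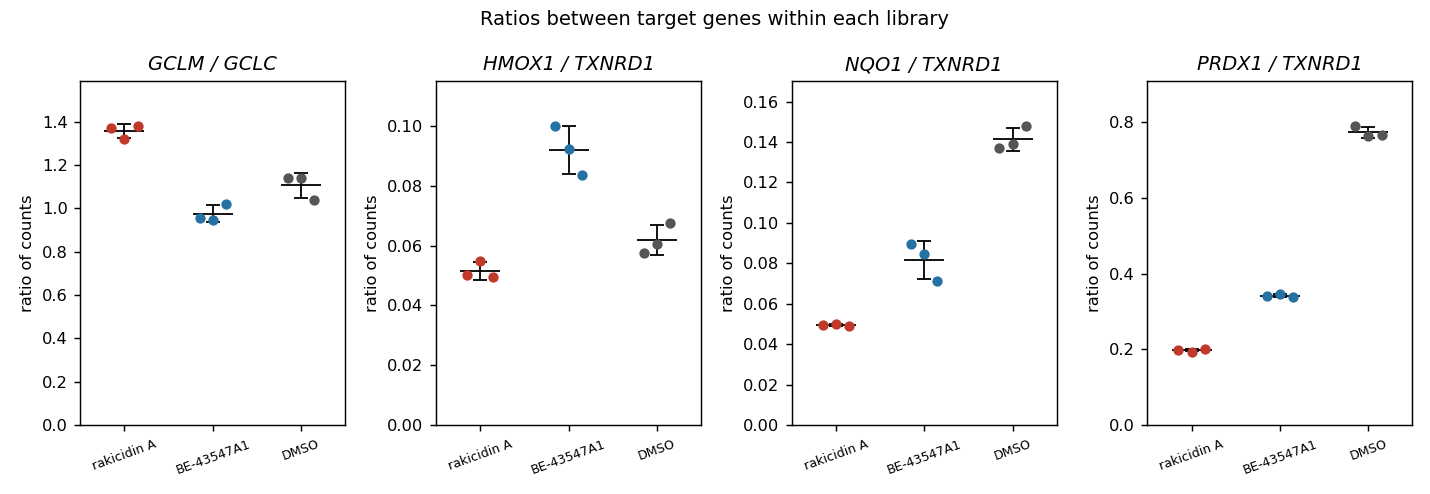
Each panel plots the ratio of the counts of a pair of genes within each library (axis from 0), for rakicidin A, BE-43547A1 and DMSO, with the mean and SD as bars. The 3 groups are separate in every panel. GCLM over GCLC is highest after rakicidin A, and HMOX1 over TXNRD1 is highest after BE-43547A1.

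TXNRD1, the cytosolic thioredoxin reductase that uses NADPH to keep thioredoxin reduced, was the most abundant member by CPM. It reached 2492, 2458 and 2432 CPM after rakicidin A and 1432, 1455 and 1593 CPM after BE-43547A1, against 927, 914 and 819.8 CPM in DMSO. Its log2 fold change was 1.47 ± 0.06 after rakicidin A (edgeR adjusted p = 1.05e-13) and 0.75 ± 0.06 after BE-43547A1 (edgeR adjusted p = 1.55e-09). The compounds differed by 0.72 (95% interval 0.60 to 0.84, edgeR adjusted p = 1.80e-08). TXNRD1 took 70.4 to 70.7% of the summed CPM of the 9 genes after rakicidin A, 59.5 to 61.4% after BE-43547A1 and 46.0 to 46.9% in DMSO.

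PRDX1, a peroxiredoxin that removes hydrogen peroxide and is itself reduced by thioredoxin, moved the other way. It lay at 495, 476 and 485.5 CPM after rakicidin A and at 488, 501.3 and 537.5 CPM after BE-43547A1, against 732, 698 and 628 CPM in DMSO. Every treated library was below every DMSO library, and the compounds overlapped. PRDX1 fell by 0.50 ± 0.06 on the log2 scale after rakicidin A (edgeR adjusted p = 8.61e-07) and by 0.43 ± 0.06 after BE-43547A1 (edgeR adjusted p = 4.56e-06). Between the compounds it did not pass at -0.07 (95% interval -0.20 to 0.06, edgeR adjusted p = 0.383), though with total counts alone it was lower after rakicidin A (-0.19, edgeR adjusted p = 0.0114). There were 0.199, 0.194 and 0.200 PRDX1 counts per TXNRD1 count after rakicidin A, 0.341, 0.345 and 0.337 after BE-43547A1, and 0.790, 0.764 and 0.766 in DMSO. The rise of TXNRD1 enters these ratios beside the fall of PRDX1. In the GENCODE v29 annotation 24.9% of the exonic bases of PRDX1 are also exonic in MMACHC on the opposite strand, which had 123 to 415 counts, and the strand setting of the counting is not given in the sources used here.

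SRXN1, sulfiredoxin, restores peroxiredoxins whose active cysteine has been oxidised too far. Its row held 7, 7 and 6 counts after rakicidin A, 11, 6 and 11 after BE-43547A1 and 6, 8 and 10 in DMSO. At 20, 28 and 24 counts per group it failed the filter on low counts. Without that filter its log2 fold change was 0.01 after rakicidin A and -0.07 after BE-43547A1, and neither passed (edgeR adjusted p = 1.00 and 0.979). In GENCODE v29, 2292 of the 2698 exonic bases of SRXN1 (85.0%) are shared with a second gene on the same strand that had 0 counts in every library. HTSeq sets aside reads that fit more than 1 feature by its usual rules, and ambiguous reads made up 2.65 to 2.94% of each library, and how far this lowers the count of SRXN1 was not tested.

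Among the NADPH enzymes, NQO1 reduces quinones at the expense of NADPH, and ME1, the cytosolic malic enzyme, produces NADPH. NQO1 lay at 123.1, 122.7 and 118.7 CPM after rakicidin A, 128.1, 123.2 and 113.7 CPM after BE-43547A1 and 127, 127 and 121.6 CPM in DMSO. The 3 groups overlapped. Its log2 fold change was -0.05 after rakicidin A (95% interval -0.16 to 0.07, edgeR adjusted p = 0.493) and -0.04 after BE-43547A1 (95% interval -0.16 to 0.07, edgeR adjusted p = 0.497). With total counts alone NQO1 fell, by 0.40 and by 0.28 (edgeR adjusted p = 6.40e-06 and 0.000276), close to the medians of all features under that scaling. Relative to TXNRD1 in the same library, NQO1 stood at 0.0494, 0.0499 and 0.0488 after rakicidin A, 0.0895, 0.0846 and 0.0714 after BE-43547A1 and 0.137, 0.139 and 0.148 in DMSO. Those ratios did not overlap between any groups. TXNRD1 itself rose by 1.47 after rakicidin A and 0.75 after BE-43547A1 on the log2 scale, so the lower ratios do not show a fall of NQO1. An antisense gene with 9 to 59 counts shares 17.7% of the exonic bases of NQO1.

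ME1 lay at 44.98, 46.01 and 47.5 CPM after rakicidin A and 43.7, 46.2 and 45.3 CPM after BE-43547A1, against 35.5, 32.98 and 37.7 CPM in DMSO. All treated libraries were above all DMSO libraries. ME1 rose by 0.38 ± 0.06 on the log2 scale after rakicidin A (edgeR adjusted p = 3.29e-05) and by 0.35 ± 0.06 after BE-43547A1 (edgeR adjusted p = 6.76e-05). With total counts alone neither rise passed (0.02 and 0.11, edgeR adjusted p = 0.738 and 0.113). The compounds did not differ past the threshold (0.03, 95% interval -0.10 to 0.16, edgeR adjusted p = 0.690).

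HMOX1, heme oxygenase 1, splits heme into biliverdin, iron and carbon monoxide. It reached 125.2, 135.0 and 120.4 CPM after rakicidin A and 143.6, 134.1 and 133.4 CPM after BE-43547A1, against 53.2, 55.2 and 55.2 CPM in DMSO. The compounds overlapped, and both lay well above DMSO. HMOX1 rose 2.33-fold after rakicidin A (log2 1.22 ± 0.06, edgeR adjusted p = 1.65e-12) and 2.51-fold after BE-43547A1 (log2 1.33 ± 0.06, edgeR adjusted p = 4.49e-13). Between the compounds it did not pass at -0.11 (95% interval -0.23 to 0.01, edgeR adjusted p = 0.121). It did pass there, as lower after rakicidin A, with total counts alone (-0.23, edgeR adjusted p = 0.00356) and with GENCODE rows only (-0.15, edgeR adjusted p = 0.0314). HMOX1 counts per TXNRD1 count were 0.0502, 0.0549 and 0.0495 after rakicidin A, 0.10, 0.0922 and 0.0837 after BE-43547A1 and 0.0575, 0.0604 and 0.0674 in DMSO. This ratio was below DMSO after rakicidin A and above it after BE-43547A1.

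OSGIN1, an oxidative stress-induced growth inhibitor, was low in DMSO and had the largest log2 rise of the 8 tested members with either compound. Rakicidin A libraries held 213, 262 and 180 counts of it and BE-43547A1 libraries 366, 350 and 338, against 50, 36 and 44 in DMSO libraries. In CPM this was 7.75, 8.38 and 7.73 after rakicidin A, 8.23, 8.65 and 8.84 after BE-43547A1 and 1.53, 1.14 and 1.25 in DMSO. OSGIN1 rose 6.09-fold after rakicidin A (log2 2.61 ± 0.13, edgeR adjusted p = 2.92e-12) and 6.55-fold after BE-43547A1 (log2 2.71 ± 0.13, edgeR adjusted p = 1.06e-12). Of the 22353 features, 583 had a larger log2 fold change after rakicidin A and 867 after BE-43547A1. For the other risen members these numbers after rakicidin A were 1928 (TXNRD1), 2562 (HMOX1), 2886 (GCLM), 4084 (GCLC) and 6967 (ME1). After BE-43547A1 they were 2795 (HMOX1), 5084 (TXNRD1), 6793 (GCLC), 7764 (ME1) and 8244 (GCLM). A second gene on the same strand, with 0 to 1 counts, shares 13.9% of the exonic bases of OSGIN1. The compounds overlapped and did not differ past the threshold (-0.10, 95% interval -0.32 to 0.11, edgeR adjusted p = 0.418).

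**Figure D3:**
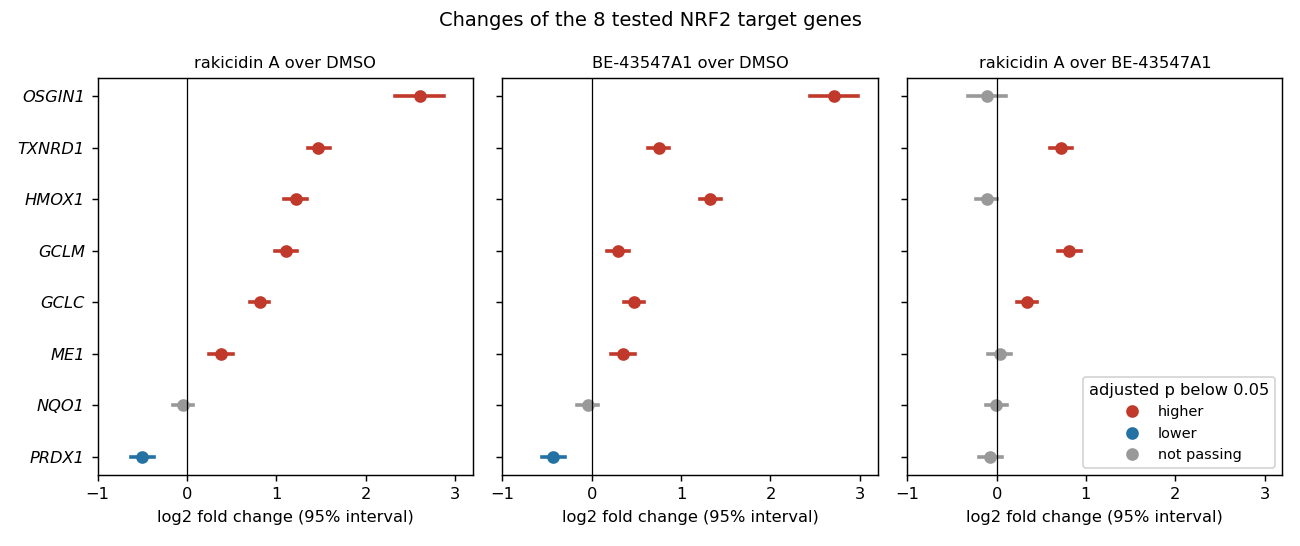
Points give the log2 fold change of the 8 tested genes, with 95% intervals as lines, for rakicidin A over DMSO, BE-43547A1 over DMSO and rakicidin A over BE-43547A1. OSGIN1 is the farthest to the right for both compounds, and TXNRD1, GCLM and GCLC are right of 0 in the direct comparison.

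In the direct comparison 3 of 8 members, GCLC, GCLM and TXNRD1, were higher after rakicidin A than after BE-43547A1, where 24.1% of all features passed as higher (46.6% in either direction). By the edgeR test 0 members were lower, where 22.5% of all features passed as lower. No tested member had an unadjusted p below 0.05 in that direction, and DESeq2 and limma called 0 as well. Total counts alone called 2 (HMOX1 and PRDX1), and GENCODE rows only called 1 (HMOX1). The 5 members that did not pass had 95% intervals that reached no lower than -0.32 and no higher than 0.16.

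Per kilobase of exon (lengths from GENCODE v29), PRDX1 led in DMSO with 450.8 ± 34.7 CPM per kb (mean ± SD, n = 3), followed by TXNRD1 with 132 ± 8.71. NQO1 followed with 38.5 ± 1.01 and HMOX1 with 22.7 ± 0.468 CPM per kb. GCLM (11.8 ± 0.728) and ME1 (10.5 ± 0.698) overlapped, and GCLC (6.70 ± 0.226), OSGIN1 (0.377 ± 0.0582) and SRXN1 (0.0890 ± 0.0191) closed the order. After rakicidin A, TXNRD1 (367 ± 4.54 CPM per kb) stood above PRDX1 (319 ± 6.15), and HMOX1 (52.7 ± 3.10) above NQO1 (37.3 ± 0.737). After BE-43547A1, PRDX1 (334.5 ± 16.7 CPM per kb) stayed above TXNRD1 (223 ± 13.0), and HMOX1 (56.98 ± 2.38) stood above NQO1 (37.4 ± 2.25). All treated libraries thus had HMOX1 above NQO1 per kilobase, and all DMSO libraries had it below. These values divide by all exonic bases, of which 85.0% in SRXN1 and 13.9% in OSGIN1 are shared with another gene on the same strand. In PRDX1 24.9% are shared on the opposite strand. Reads on shared bases may be set aside, so the order of SRXN1 and OSGIN1, and of PRDX1 and TXNRD1 after rakicidin A, is not settled.

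Likeness to other genes was measured as the root mean square difference (RMS, in log2 units) between profiles of log CPM over the 9 libraries, each centred on its own mean, among 8816 named GENCODE genes. The nearest to GCLM were TMED5, SSR3 and GATAD1 (RMS 0.0476 to 0.0495), and to GCLC they were INPP5K, SEC24C and MED13 (0.0371 to 0.0469). TXNRD1 lay nearest to GNL3, NTN4 and RAB1A (0.0479 to 0.0584), and PRDX1 to EMB, GALNT1 and SDC2 (0.0354 to 0.0437). NQO1 lay nearest to WDR62, RBM3 and ME3 (0.0343 to 0.0421), and ME1 to CCNI, ATP1B3 and CSNK2A2 (0.0288 to 0.0375). HMOX1 lay nearest to KDM5C, FBXO32 and MAP3K10 (0.0611 to 0.0623), and OSGIN1 to JMJD1C, OSER1 and ZBTB10 (0.105 to 0.128). Among the members themselves the closest pair was GCLC and ME1 (0.187), then GCLM and TXNRD1 (0.201) and GCLC and GCLM (0.202), while OSGIN1 and PRDX1 were farthest apart (1.45). SRXN1, which failed the filter, was not compared.

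The regulators of NRF2 were read next, 12 genes that were all tested. With each compound 6 of them rose, where 31.9% of all tested features were higher after rakicidin A and 35.3% after BE-43547A1. NFE2L2 itself lay at 164.6, 172.0 and 170.6 CPM after rakicidin A and 148.4, 148.9 and 142.9 CPM after BE-43547A1, against 90.7, 90.05 and 91.1 CPM in DMSO, and the groups did not overlap. It rose by 0.90 ± 0.05 on the log2 scale after rakicidin A (edgeR adjusted p = 1.84e-11) and by 0.70 ± 0.05 after BE-43547A1 (edgeR adjusted p = 6.90e-10). Between the compounds NFE2L2 differed by 0.20 (edgeR adjusted p = 0.00272), a call lost with total counts alone (0.08, edgeR adjusted p = 0.178).

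MAFF, a small MAF protein that pairs with NRF2, had the largest rise of these 12. It reached 168.9, 169.8 and 166.1 CPM after rakicidin A and 214.8, 223.3 and 217.1 CPM after BE-43547A1, against 7.58, 7.55 and 8.18 CPM in DMSO. Its log2 fold change was 4.43 ± 0.06 after rakicidin A (edgeR adjusted p = 1.16e-19) and 4.81 ± 0.06 after BE-43547A1 (edgeR adjusted p = 4.63e-20), and it was lower after rakicidin A than after BE-43547A1 (-0.38, edgeR adjusted p = 8.71e-06). The other small MAF genes rose too, MAFK by 1.64 ± 0.06 and 1.38 ± 0.06 and MAFG by 1.57 ± 0.06 and 1.80 ± 0.06 after rakicidin A and BE-43547A1. The repressor gene BACH1 rose by 2.06 ± 0.06 after rakicidin A and 2.13 ± 0.06 after BE-43547A1. SQSTM1, whose protein p62 draws KEAP1 into autophagy, rose by 2.06 ± 0.06 and 2.33 ± 0.06.

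Among the genes that hold NRF2 down, KEAP1 lay at 44.6, 42.4 and 45.4 CPM after rakicidin A and 32.1, 32.1 and 30.6 CPM after BE-43547A1, against 48.9, 42.99 and 46.4 CPM in DMSO. The rakicidin A libraries overlapped the DMSO libraries, and the BE-43547A1 libraries were below both. KEAP1 did not pass after rakicidin A (-0.06, edgeR adjusted p = 0.399) and fell by 0.54 ± 0.06 after BE-43547A1 (edgeR adjusted p = 3.95e-07). The compounds differed by 0.48 ± 0.06 (edgeR adjusted p = 6.40e-06). With total counts alone KEAP1 fell after rakicidin A as well (-0.42, edgeR adjusted p = 1.17e-05). CUL3, the scaffold of the ligase, fell by 0.47 ± 0.05 after rakicidin A and by 0.27 ± 0.05 after BE-43547A1. RBX1, its RING subunit, fell by 0.32 ± 0.10 after rakicidin A (edgeR adjusted p = 0.00997, but 0.0556 without DMSO replicate 2) and did not pass after BE-43547A1 (0.08, edgeR adjusted p = 0.466).

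BTRC, part of a second ligase for NRF2, did not pass after rakicidin A (0.01, edgeR adjusted p = 0.913) and was lower after BE-43547A1 (-0.17, edgeR adjusted p = 0.0203). That call was lost without BE-43547A1 replicate 1 or 2 or DMSO replicate 2 (edgeR adjusted p = 0.175, 0.067 and 0.052). It was also lost without the filter and with GENCODE rows only (edgeR adjusted p = 0.116 and 0.0531). Of the related factors, NFE2L3 fell by 0.72 ± 0.06 and 0.51 ± 0.06. NFE2L1 did not pass after rakicidin A (-0.03, edgeR adjusted p = 0.698). It was lower after BE-43547A1 (-0.14, edgeR adjusted p = 0.0329), a call lost without any of 7 libraries in turn, all of the compounds and DMSO replicate 3 (edgeR adjusted p = 0.0524 to 0.176). With no library dropped, the NFE2L1 call was also lost without the filter and with GENCODE rows only (edgeR adjusted p = 0.137 and 0.0919). The same held when only the 6 libraries of the comparison were fitted (edgeR adjusted p = 0.0719). The counts over the 12 regulators were 6 higher and 3 lower after rakicidin A and 6 higher and 5 lower after BE-43547A1. The lower count after BE-43547A1 was 3 without BE-43547A1 replicate 1 or 2, without the filter or with GENCODE rows only. Of all tested features 32.7% were lower after rakicidin A and 35.1% after BE-43547A1. Total counts alone gave 6 higher and 6 lower after rakicidin A, BTRC (-0.35) and NFE2L1 (-0.38) among the lower, and left the split after BE-43547A1 at 6 higher and 5 lower.

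**Figure D4:**
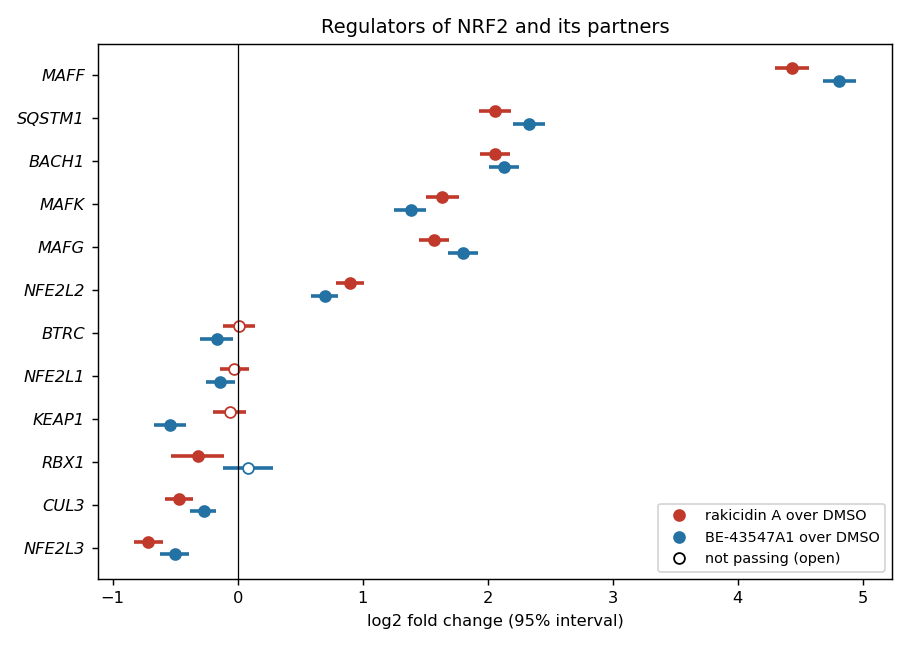
Points give the log2 fold change over DMSO of the 12 regulator genes after rakicidin A (upper point of each pair) and BE-43547A1 (lower point), with 95% intervals as lines and open points where the adjusted p did not pass. MAFF lies above 4 for both compounds, and KEAP1 is filled on the left side for BE-43547A1 only.

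The other genes of these pathways were counted in 6 lists. Beside each list, 31.9% of all tested features were higher and 32.7% lower after rakicidin A. After BE-43547A1 these shares were 35.3% and 35.1%. Of 24 tested genes of glutathione supply and use, 6 rose and 16 fell after rakicidin A, and 6 rose and 9 fell after BE-43547A1 (5 and 18, and 5 and 16, with total counts alone). The median log2 fold change was -0.26 after rakicidin A and -0.11 after BE-43547A1. SLC7A11, the cystine importer that feeds glutathione synthesis, reached 619.4, 619.2 and 651.7 CPM after rakicidin A and 203.3, 187.0 and 229.4 CPM after BE-43547A1, against 59.7, 54.2 and 52.4 CPM in DMSO. It rose by 3.51 ± 0.08 after rakicidin A (edgeR adjusted p = 2.34e-17) and 1.90 ± 0.07 after BE-43547A1 (edgeR adjusted p = 5.47e-14). The compounds differed by 1.61 ± 0.07 (edgeR adjusted p = 1.98e-11). In that direct comparison 4 of the 24 genes were higher and 7 lower after rakicidin A than after BE-43547A1 (4 and 12 with total counts alone). Of all tested features 24.1% were higher and 22.5% lower there. SLC3A2, the partner chain of SLC7A11, rose by 1.38 ± 0.06 and 1.29 ± 0.06, and CHAC1, which degrades glutathione, by 3.78 ± 0.09 and 2.94 ± 0.09. GPX3, GLRX and GLRX2, named after their values were seen, were the other 3 that rose with each compound. GPX3 did not pass after rakicidin A with total counts alone (0.36, edgeR adjusted p = 0.147), nor did GLRX2 after BE-43547A1 (0.11, edgeR adjusted p = 0.287). GPX8, a peroxidase of the endoplasmic reticulum, fell by 0.34 ± 0.06 and 1.49 ± 0.07.

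In the thioredoxin and peroxiredoxin system 3 of 18 genes rose and 9 fell after rakicidin A, and 5 rose and 7 fell after BE-43547A1 (3 and 15, and 3 and 11, with total counts alone). SESN2, a sestrin, rose by 3.99 ± 0.06 after rakicidin A and 3.81 ± 0.06 after BE-43547A1, and TXNL1, a thioredoxin-like protein, by 0.76 ± 0.06 and 0.64 ± 0.06. The other thioredoxin reductases did not share the rise of TXNRD1. TXNRD2, the mitochondrial enzyme, fell by 0.65 ± 0.09 and 0.66 ± 0.09, and TXNRD3 fell by 0.78 ± 0.09 and 0.92 ± 0.08. As PRDX1 did, the peroxiredoxin genes PRDX2, PRDX3 and PRDX6 fell with both compounds. PRDX4 passed with neither (76.03 and 72.45 CPM, against 79.18 CPM in DMSO), nor did PRDX5 pass after rakicidin A (147.6 CPM, against 149.7 CPM in DMSO). With total counts alone PRDX4 was lower with both (-0.42 and -0.36, edgeR adjusted p = 0.000226 and 0.000679), and PRDX5 after rakicidin A (-0.38, edgeR adjusted p = 1.13e-05). SESN3 rose with both compounds, and PRDX5 and MSRA were higher after BE-43547A1, though neither passed there with total counts alone (0.07 and 0.10, edgeR adjusted p = 0.295 and 0.513). PRDX2 to PRDX6, SESN3 and MSRA were named after their values were seen.

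Genes of NADPH supply other than ME1 were split, with 1 of 12 higher and 4 lower after rakicidin A and 4 higher and 5 lower after BE-43547A1 (0 and 11, and 1 and 7, with total counts alone). PGD, of the pentose phosphate pathway, rose by 0.46 ± 0.12 after rakicidin A (edgeR adjusted p = 0.00213) and 0.79 ± 0.12 after BE-43547A1 (edgeR adjusted p = 7.15e-06). With total counts alone the first of these did not pass (0.10, edgeR adjusted p = 0.473). DMSO replicate 3 had 101.1 CPM of PGD, against 68.3 and 63.96 CPM in the other DMSO libraries, and without that library 2 genes of the list rose after rakicidin A. NNT, the mitochondrial transhydrogenase, fell by 0.29 ± 0.06 and 0.42 ± 0.06. IDH2 fell by 0.49 ± 0.06 after rakicidin A and by 0.19 ± 0.06 after BE-43547A1, the second lost without BE-43547A1 replicate 3 (edgeR adjusted p = 0.0932). IDH1, the cytosolic isocitrate dehydrogenase, fell by 0.77 ± 0.07 after BE-43547A1 and did not pass after rakicidin A (0.03, edgeR adjusted p = 0.763), where total counts alone gave a fall of 0.33 (edgeR adjusted p = 0.000323).

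Of 16 genes of heme and iron handling, 7 rose and 3 fell after rakicidin A, and 5 rose and 7 fell after BE-43547A1 (2 and 8, and 2 and 9, with total counts alone). For this list and the next, 31.9% of all tested features rose and 32.7% fell after rakicidin A. After BE-43547A1 35.3% rose and 35.1% fell. TFRC, the transferrin receptor, rose by 0.73 ± 0.07 after rakicidin A and 1.01 ± 0.07 after BE-43547A1, and SLC11A2, an iron transporter, by 0.54 ± 0.06 and 0.27 ± 0.06, the value after BE-43547A1 not passing with total counts alone (0.03, edgeR adjusted p = 0.686). IREB2, which controls iron genes through their RNA, fell by 0.77 ± 0.07 and 1.05 ± 0.07. FLVCR1, a heme exporter, rose by 0.40 ± 0.06 after rakicidin A, though not with total counts alone (0.04, edgeR adjusted p = 0.542), and fell by 0.25 ± 0.06 after BE-43547A1. Of detoxification and export, 22 of 29 genes were tested, and 6 rose and 10 fell after rakicidin A and 7 rose and 9 fell after BE-43547A1 (2 and 14, and 5 and 14, with total counts alone). UGDH, which makes the sugar donor for glucuronidation, rose by 1.08 ± 0.05 and 1.12 ± 0.05. The transporter gene ABCC5 fell by 1.25 ± 0.08 and 1.00 ± 0.07, CRYZ, a quinone reductase, by 0.86 ± 0.06 and 0.69 ± 0.06, and the aldehyde dehydrogenase gene ALDH3A2 by 0.67 ± 0.08 and 0.87 ± 0.08.

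The list of superoxide and peroxide removal had 5 tested genes of 6, with 1 higher and 3 lower after rakicidin A and 1 higher and 4 lower after BE-43547A1 (1 and 4 for each with total counts alone). SOD2, the mitochondrial superoxide dismutase, reached 1589, 1598 and 1591 CPM after rakicidin A and 1799, 1715 and 1811.5 CPM after BE-43547A1, against 247.1, 242.5 and 231.9 CPM in DMSO. It rose by 2.73 ± 0.05 and 2.88 ± 0.05 on the log2 scale. SOD1, the cytosolic enzyme, fell by 0.49 ± 0.07 and 0.25 ± 0.07, PON2 by 0.63 ± 0.06 and 0.49 ± 0.06, and PARK7 by 0.27 ± 0.06 and 0.20 ± 0.06. Each gene of these lists said to rise or fall passed at an edgeR adjusted p of at most 0.0323 under the TMM scaling.

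**Figure D5:**
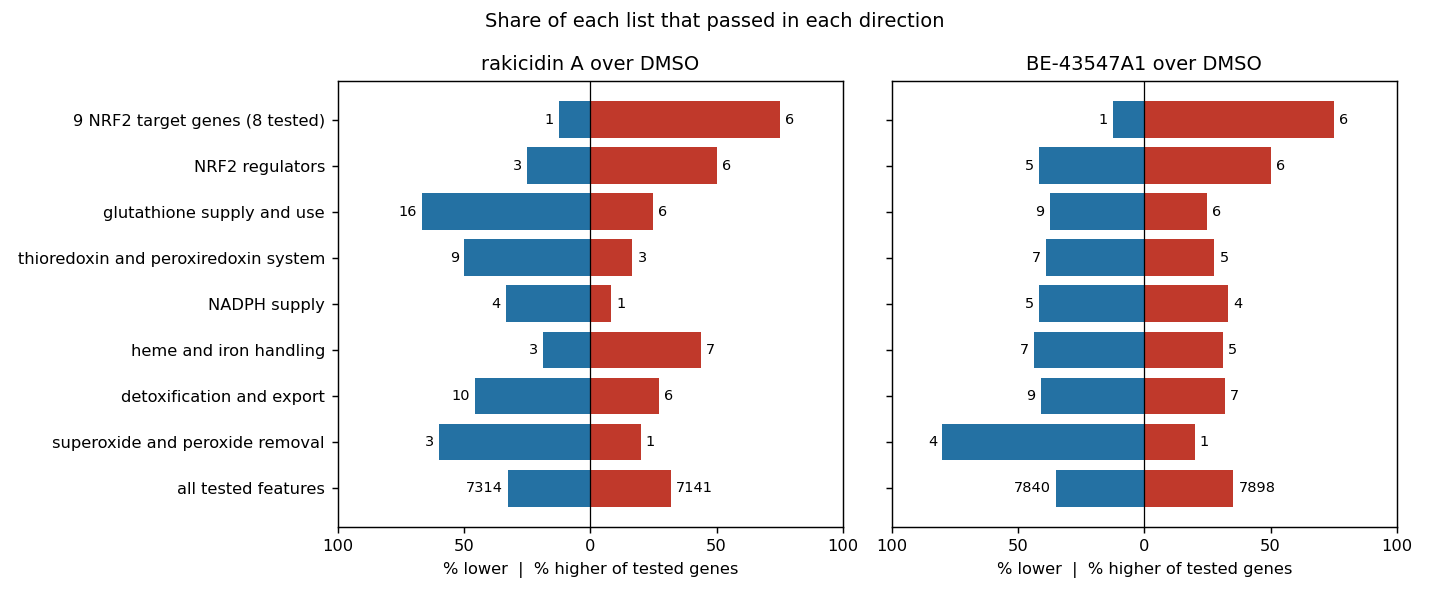
Bars give the percentage of tested genes that passed as higher (right of 0) and lower (left of 0) in each list and over all tested features, for rakicidin A over DMSO and BE-43547A1 over DMSO, with the number of genes at the end of each bar. The bar of the 8 tested NRF2 target genes reaches farthest to the right in both panels, at 6 genes higher and 1 lower. The members and lists were chosen with earlier results of these data known.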

How the data were processed

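The members and lists were chosen with earlier results of these data known. Per the labels' protocols, total RNA was sequenced as paired reads of 76 bases. Per the submitters' processing notes TopHat2, HTSeq, GRCh37 and hg19 were named. Settings and strand mode were not given in the sources used here. Whole-number counts per feature and library, with no normalization, were deposited by the authors.

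The 5 HTSeq summary lines were kept out of all totals, among them reads on no feature (16.4 to 20.8% of the feature total plus summary lines). Counts were fitted in R 4.3.3 with edgeR 4.0.16: filterByExpr, TMM (factors 0.890 to 1.15), and a quasi-likelihood fit of 9 libraries with a mean for each group (6 residual degrees of freedom). The code was also run on simulated counts with few changed features, in the rakicidin A group alone and at a fixed dispersion. That run cannot test the scaling where most features are called, as here. Standard errors were taken as log2 fold change divided by the root of F. Intervals are at 95%, from a t distribution whose degrees of freedom add a prior estimated over all features to the residual ones. The p-values of the fit use the same total. CPM is scaled by TMM, and log CPM used a prior count of 2. All 9 members were named. Other lists were named by their 4 smallest products of p over the compounds, and every regulator was named. Neighbours needed a mean of at least 5 CPM. Exon lengths came from GENCODE v29 (GRCh38) by gene ID. Alternatives were RLE, total counts alone, no filter, DESeq2 1.42.0, voom of limma 3.58.1, the 6 libraries of a comparison, a replicate block, mitochondrial and ribosomal RNA left out, GENCODE rows only, thinning to 26203326 counts and each library left out. Figures used matplotlib 3.10.9.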

Additional observations from a re-analysis of the deposited data

How the results depend on the processing

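For the members, the counts of higher genes (6, 6 and 3 in the 3 comparisons) and lower genes (1, 1 and 0) stayed the same with each library left out in turn. Total counts alone gave 5, 4 and 3 higher members and 2 lower members in each of the 3 comparisons, and GENCODE rows only gave 1 in the direct comparison. No other setting moved a member count past 1.5 times, and the numbers of features called stayed within 1.5 times under all settings. The replicate numbers showed no clear pairing of the libraries. Deviations of same-numbered libraries correlated at -0.0566 to 0.122, and those of differently numbered libraries at -0.0967 to 0.0925. The highest value, 0.122, was between replicate 1 of BE-43547A1 and of DMSO. A replicate block gave the same member counts, with 14359, 15670 and 10347 features called. Values near 0 changed sign. In the direct comparison NQO1 was 0.005 with RLE and 0.021 with DESeq2 and lay between -0.044 and 0.029 with 1 library left out, and ME1 was -0.087 with total counts alone and -0.009 with GENCODE rows only. NQO1 after BE-43547A1 lay between -0.074 and 0.014 with 1 library left out. For the other lists, to which the same settings were applied after seeing the data, total counts alone gave -0.332 for IDH1 and -0.350 for BTRC after rakicidin A and -0.158 for RBX1 after BE-43547A1. BTRC was -0.001 without a filter and with GENCODE rows only. With 1 library left out, the values after rakicidin A were -0.016 to 0.044 for BTRC, -0.044 to 0.108 for IDH1 and -0.050 to 0.018 for NFE2L1. The cause was not tested. SRXN1, at 20 to 28 counts per group, was too low to be tested.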
